A study of Rattus norvegicus with 19 samples.

Results

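Low-dose enalapril, given alone to hypertensive rats on a salty diet, was compared with vehicle in the left ventricle. The comparison takes the 3 arrays of the enalapril group and the 4 arrays of the vehicle group, chosen by their sample titles, 7 of the 19 arrays in the series, and covers 14217 genes. All rats were male Dahl salt-sensitive animals (Harlan SS/Hsd), a strain whose blood pressure rises on salt. They ate 6% NaCl from 6 weeks of age. After 5 weeks of that diet the vehicle group received vehicle injections, 3 a week, for 4 more weeks, and was 15 weeks old at the end. The enalapril group had the same diet, age and vehicle injections, with 90 ug of enalapril a day from an osmotic pump, a dose that the study chose because it did not significantly lower blood pressure. The pumps are described for the enalapril-treated groups, so the drug and the pump cannot be told apart. The remaining groups, with 4 arrays each, were a baseline taken at 11 weeks of age, before treatment, paricalcitol (200 ng an injection), and both drugs, called the combination here. Every group ate the high-salt diet, so none shows a heart without salt loading. The rats' numbers in the labels run in a block of their own per group, so treatment and cohort cannot be told apart either.

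Enalapril blocks angiotensin-converting enzyme, which makes angiotensin II from angiotensin I and also breaks down bradykinin. Angiotensin II acts mainly through the type 1 receptor. In the pressure-loaded heart it is known for promoting myocyte growth, fibrosis and inflammation, and for raising aldosterone.

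Levels below are log2 of the normalized intensity plus 16, so the floor is 4, and a difference is the enalapril mean minus the vehicle mean on that scale, with limma's standard error (SE). Such differences understate changes of faint genes. Before normalization, array medians lay between 43.57 and 60.98 intensity units on the 7 arrays. Cardiomyocyte markers were bright, with Myh7 at 14.11 ± 0.04 (SD, n = 4) in vehicle and 14.13 ± 0.05 (SD, n = 3) in enalapril. Sln, an atrial marker, was at the floor on all 7 arrays, but it was the 1 of 7 measured atrial markers to be so. Of these markers, 5 had a mean of at least 5. Their summed intensity was 3130 to 3940 on the vehicle arrays and 2490 to 3240 on the enalapril arrays, so Sln does not stand for the list. Nothing in the labels says whether rats were housed or processed separately, so p-values measure the spread between these arrays. Tissue was measured in bulk, so fewer cells of a type and less RNA per cell cannot be told apart.

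No gene passed a Benjamini-Hochberg adjusted p under 0.05 in limma (0 of 14217 genes, percent called 0), and the lowest adjusted p was 0.435. In total 802 genes, 5.64% of those tested, had an unadjusted p under 0.05. Of these, 385 were higher with enalapril (2.71%) and 417 lower (2.93%). That split followed the scaling: with the arrays left as deposited it was 1077 higher and 64 lower, the median gene being shifted by 0.17, and 284 higher and 660 lower after scaling each array to a common median. In 1212 genes (8.53%) the enalapril and vehicle arrays did not overlap, 615 with enalapril higher (4.33%) and 597 with enalapril lower (4.2%). Most differences were small: 5% of genes lay below -0.40 and 5% above 0.41, and only 116 genes (0.816%) differed by at least 1. The median SE was 0.18. The smallest unadjusted p of all, 3.62e-05, belonged to Kiaa0319, and the next to Tnfrsf11a, and both were at the floor on all 3 enalapril arrays.

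The genes described first are the 14 higher and the 14 lower genes with the smallest p among those that did not overlap and had a mean of at least 6 in either group. Their adjusted p in limma lay between 0.58 and 0.774, so each value below is a description of these 7 arrays. In 18 of the 28 the array holds a single probe set for the gene.

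Among the lower genes, 2 belong to cholesterol synthesis and its control, a pathway run by enzymes under the sterol-sensing SREBP factors. Lss encodes lanosterol synthase, which closes the sterol ring. Its vehicle arrays read 6.75, 6.85, 6.74 and 6.61, and its enalapril arrays 5.93, 6.13 and 6.15. All enalapril arrays were lower, by -0.67 (SE 0.16, limma unadjusted p = 0.000686), a ratio of 0.629. Insig1, which holds SREBP in the endoplasmic reticulum when sterols are plentiful, read 9.30, 9.34, 9.30 and 9.21 in vehicle against 8.88, 8.98 and 8.90 with enalapril. The difference was -0.37 (SE 0.09, limma unadjusted p = 0.00107). In both genes the vehicle mean was also the highest of the 5 groups. Lss averaged 5.83 at baseline, 5.89 with paricalcitol and 6.53 in the combination. Insig1 averaged 8.78, 8.97 and 8.96 in those groups. A second Lss probe set was at the floor in both groups and measured nothing.

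The 250 bases before the start of these 2 genes are shown because both are textbook sterol-regulated genes, and the letters let a reader see which common promoter elements the windows hold. The sequences are RefSeq's on GRCr8, both on the minus strand, printed 5′ to 3′ in the direction of transcription. Insig1 lies at chr4:8057770-8058019 and Lss at chr20:12118231-12118480. Capitals mark CCAAT, here read as ATTGG on the opposite strand, and the E-box CACGTG.
Insig1: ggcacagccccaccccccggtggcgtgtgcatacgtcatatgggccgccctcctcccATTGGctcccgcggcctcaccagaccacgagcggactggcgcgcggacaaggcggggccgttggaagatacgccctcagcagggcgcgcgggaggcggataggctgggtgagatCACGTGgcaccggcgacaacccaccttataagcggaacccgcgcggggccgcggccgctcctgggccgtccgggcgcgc
Lss: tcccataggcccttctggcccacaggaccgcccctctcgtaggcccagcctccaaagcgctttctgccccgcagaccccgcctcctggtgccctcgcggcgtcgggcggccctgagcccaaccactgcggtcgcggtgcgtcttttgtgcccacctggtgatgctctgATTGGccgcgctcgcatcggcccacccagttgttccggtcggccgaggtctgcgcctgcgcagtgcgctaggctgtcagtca
Searched on both strands, CCAAT occurs in both windows and in 34% of the 33469 promoter windows of the same length. CACGTG occurs in the Insig1 window alone of the pair, and in 5.59% of all windows. The sterol element written TCACNCCAC, found in 0.974% of windows, is in neither. The marked matches do not overlap each other.

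Over the whole sterol list, 14 of 23 measured genes were lower and 8 higher. The list median was -0.03, against 0 for all genes. It turned to 0.07 in the deposited values without equalisation, below the 0.17 of all genes there, and to 0.003 with dimmer genes left out. Single arrays moved it too, to -0.11 without vehicle replicate 4, -0.09 without vehicle replicate 2 and -0.09 without enalapril replicate 3. In 4 of the 23 the arrays did not overlap with enalapril lower (17.4%, against 4.2% of all genes). Beside Lss and Insig1 these were Fdft1, squalene synthase, and Sc5d, which introduces a double bond into the sterol ring. Fdft1 read 9.36, 9.53, 9.53 and 9.24 in vehicle and 8.69, 8.99 and 8.88 with enalapril, a difference of -0.56 (SE 0.28). Sc5d read 7.47, 7.97, 7.59 and 7.92 in vehicle and 7.34, 7.31 and 7.35 with enalapril, a difference of -0.41 (SE 0.18). Other enzymes of the same pathway sat close to 0: Cyp51 differed by 0.03 (SE 0.16), Nsdhl by 0.01 (SE 0.09) and Msmo1 by 0.07 (SE 0.11).

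Cacna2d1 encodes the alpha-2/delta-1 auxiliary subunit of the L-type calcium channel, which carries the calcium current that triggers contraction. It read 8.39, 8.62, 8.52 and 8.23 in vehicle and 7.79, 7.89 and 7.80 with enalapril. The difference was -0.61 (SE 0.14, limma unadjusted p = 0.000577). The baseline mean of 8.63 was near vehicle, while paricalcitol (8.02) and the combination (7.85) lay near enalapril.

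Cops4, a subunit of the COP9 signalosome that removes NEDD8 from cullin ubiquitin ligases, had the smallest p of the 28. Vehicle arrays read 10.95, 10.77, 10.87 and 10.91, and enalapril arrays 10.64, 10.63 and 10.53. The groups did not overlap, and the difference was -0.27 (SE 0.05, limma adjusted p = 0.58). Its other 2 probe sets were also lower, by -0.19 and -0.41. Baseline (10.65), paricalcitol (10.61) and the combination (10.71) lay nearer to enalapril than to vehicle.

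Fance is part of the Fanconi anaemia core complex, which repairs DNA crosslinks. It read 6.17, 6.29, 6.17 and 5.93 in vehicle and 5.30, 5.03 and 5.56 with enalapril, a difference of -0.84 (SE 0.17, limma unadjusted p = 0.00022). The 3 enalapril arrays lay below all 16 other arrays, whose lowest value was 5.61. Dclre1a, a nuclease that also acts on DNA crosslinks, stood apart in the other direction. Its vehicle arrays read 7.68, 7.28, 7.49 and 7.72 and its enalapril arrays 7.90, 7.96 and 7.93, above the highest of the 16 others at 7.76. The difference was 0.39 (SE 0.10). Nsd3, a histone H3 lysine methyltransferase, read 7.86, 8.04, 7.88 and 7.83 in vehicle and 7.50, 7.51 and 7.33 with enalapril. Its difference was -0.46 (SE 0.11), but the other 5 probe sets of the gene differed by -0.03 to 0.25. Fance, Dclre1a and Nsd3 were the 3 of 28 in which enalapril lay outside every other array, as it did in 29 genes overall (0.204%). Trappc12, a TRAPP tethering subunit, was the 1 of 28 in which vehicle lay outside every other array, as in 22 genes overall (0.155%).

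The other lower genes were Ttc3, a ubiquitin ligase (-0.31, SE 0.06), Thap4 (-0.44), Ccdc71 (-0.33), Napb, a SNAP protein of vesicle fusion (-0.69), Lamtor5 of the Ragulator complex that recruits mTORC1 to lysosomes (-0.33), Hdgf, a heparin-binding growth factor (-0.30), Aagab, an assembly factor of clathrin adaptors (-0.52), and Trappc12 (-0.27). Ttc3 passed when each array was scaled to a common median (-0.37, limma adjusted p = 0.0269), and in no other setting.

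Higher genes included several of RNA handling. Elavl1 encodes HuR, which binds AU-rich elements and stabilises messenger RNAs. It read between 9.94 and 10.04 on the vehicle arrays and 10.28, 10.40 and 10.10 with enalapril, a difference of 0.27 (SE 0.07). All 3 of its probe sets were higher, by 0.27, 0.30 and 0.28. Tsr1, a factor of small ribosomal subunit assembly, read 9.01, 9.36, 9.35 and 9.01 against 9.63, 9.46 and 9.54, a difference of 0.36 (SE 0.10). Lsm5, an Sm-like protein of the rings that bind U6 RNA and decay messenger RNA, differed by 0.23 (SE 0.07). Tyw3, a tRNA-modifying enzyme, differed by 0.41 (SE 0.12). No test was made of RNA handling as a group.

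Drg1, a GTPase associated with ribosomes, was 7.67, 7.50, 7.35 and 7.80 in vehicle and 8.03, 8.14 and 8.04 with enalapril, a difference of 0.49 (SE 0.12). The largest of the 28 differences was in Tmem51, a membrane protein. It read 5.70, 6.73, 6.81 and 5.54 against 6.99, 8.48 and 8.06, or 1.65 higher (SE 0.49). Its arrays spread widely within both groups, and its other probe set differed the opposite way, by -0.85 (SE 0.74). The rest were Smco4 (0.62), Champ1, a chromosome alignment protein (0.45), Spag7 (0.18), Cfdp1 (0.27), Crygs, a crystallin (0.66), Plpp6, a lipid phosphatase (0.39), and Saxo4 (0.98).

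**Figure D1:**
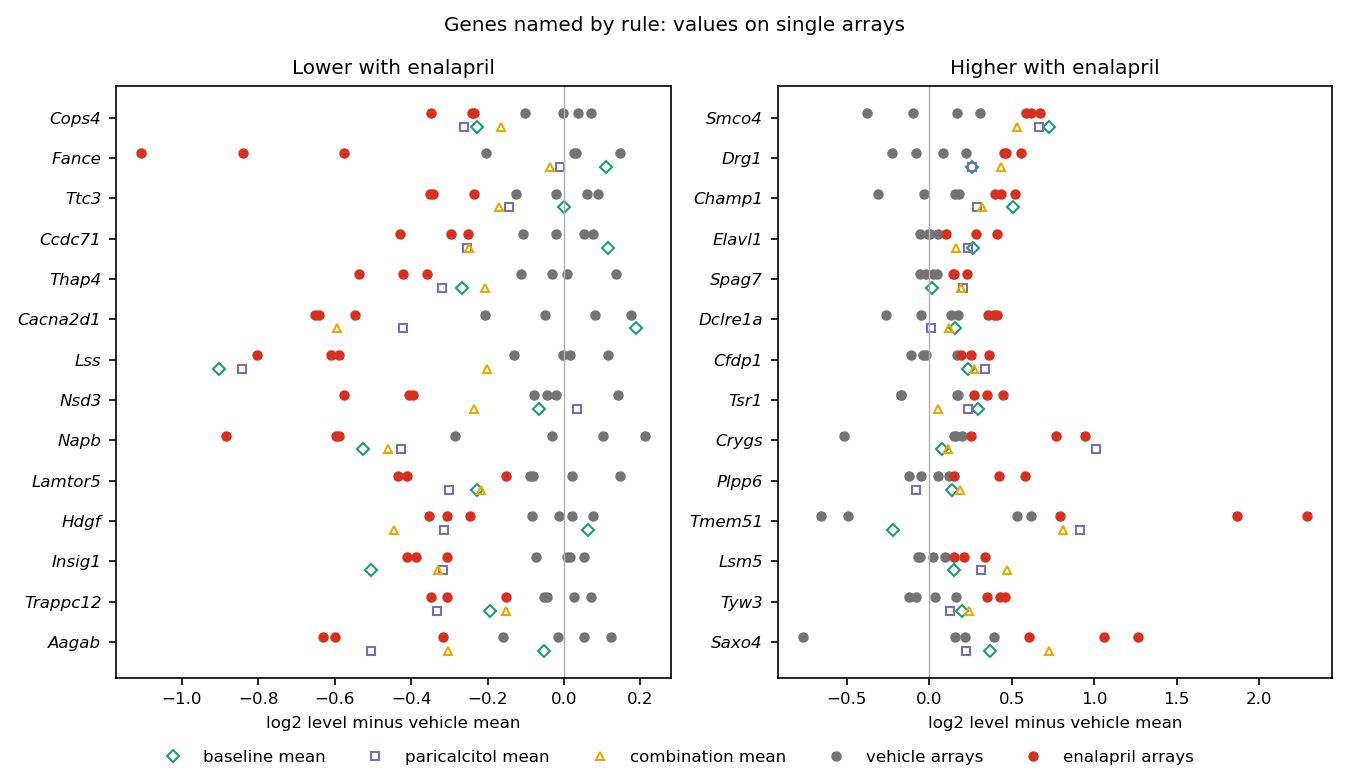
Log2 level minus the vehicle mean for the 28 genes, with the 4 vehicle arrays in grey, the 3 enalapril arrays in red and the means of the baseline, paricalcitol and combination groups as open symbols. Enalapril and vehicle arrays do not overlap because the genes were chosen so; the baseline mean lies near enalapril in Cops4, Lss, Insig1 and Smco4 and near vehicle in Fance, Cacna2d1 and Hdgf.

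The enzyme that enalapril blocks differed little between the groups. Ace read 8.07, 7.50, 8.30 and 8.38 in vehicle and 7.59, 7.72 and 8.29 with enalapril. The groups overlapped, and the difference was -0.19 (SE 0.31, 95% interval -0.86 to 0.47). Agtr1a, the main type 1 receptor, differed by 0.04 (95% interval -0.47 to 0.56), and the mineralocorticoid receptor Nr3c2 by 0.03 (95% interval -0.26 to 0.33). Agt, the angiotensin precursor, was at or near the floor in both groups, as was Mme, neprilysin. Agtr2 (0.35, SE 0.42) and the kinin receptor Bdkrb2 (0.55, SE 0.68) were faint and varied widely.

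Agtrap, a protein that binds the type 1 receptor and promotes its internalisation, was the 1 of 23 measured renin-angiotensin and kinin genes at an unadjusted p under 0.05, a share of 4.35% against 5.64% of all genes. It read 6.76, 6.56, 6.67 and 6.71 in vehicle and 6.39, 6.06 and 6.29 with enalapril. Every enalapril array was lower, by -0.43 (SE 0.15, limma unadjusted p = 0.0106, adjusted p = 0.791). The list as a whole had 13 genes higher and 9 lower, with a median of 0.02.

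Of the hypertrophy markers, Nppa, Acta1 and Myh7 differed by little, within narrow limits set in part by the method. Quantile normalization leaves the brightest transcripts little room. Limits were wider for Nppb and Myh6. The natriuretic peptide Nppa differed by -0.003 (95% interval -0.17 to 0.16) and Nppb by 0.10 (95% interval -0.40 to 0.61). Skeletal actin Acta1 differed by 0.02 (SE 0.05) and the slow myosin Myh7 by 0.02 (SE 0.07). These values rest on the scaling: after scaling each array to a common median they were -0.31 for Nppa, -0.11 for Nppb, -0.23 for Acta1 and -0.24 for Myh7, and the median of the natriuretic and fetal list went from 0.001 to -0.23. The adult fast myosin Myh6 read 11.36, 13.04, 11.75 and 12.10 in vehicle and 13.26, 12.14 and 11.47 with enalapril. The spread within each group was larger than the difference of 0.23 (SE 0.52). Npr3, the receptor that clears natriuretic peptides, read 5.29, 5.77, 6.00 and 5.76 against 4.67, 4.53 and 4.55. It was lower on every enalapril array, by -1.13 (SE 0.47, limma unadjusted p = 0.0291), at levels close to the floor. Its mean was 4.89 at baseline, 4.07 with paricalcitol and 4.75 in the combination, all below vehicle.

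The collagen and fibronectin genes most used as fibrosis markers had differences within their error. The collagen Col1a1 differed by -0.02 (95% interval -0.86 to 0.82), Col3a1 by 0.21 (95% interval -0.41 to 0.82), fibronectin Fn1 by -0.15 (SE 0.38) and the connective tissue growth factor Ccn2 by 0.02 (SE 0.39). Intervals this wide do not show that the levels were equal. Among 36 matrix genes 19 were higher and 17 lower, with a median of 0.04 that became -0.04 after median scaling. Serpinh1, the collagen chaperone, was the 1 of 36 at an unadjusted p under 0.05, against 5.64% of all genes. It read 10.20, 10.91, 10.34 and 10.56 in vehicle and 11.06, 10.93 and 11.06 with enalapril, a difference of 0.51 (SE 0.21). In 4 of the 36 every enalapril array lay above every vehicle array (11.1%, against 4.33% of all genes): Serpinh1, Col4a2 of basement membrane (0.37, SE 0.21), elastin Eln (0.29, SE 0.22) and tenascin Tnc (0.28, SE 0.73), whose vehicle arrays were all at the floor. The procollagen protease Bmp1 was the 1 of 36 lower without overlap (2.78%, against 4.2%), at -0.18 (SE 0.15).

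**Figure D2:**
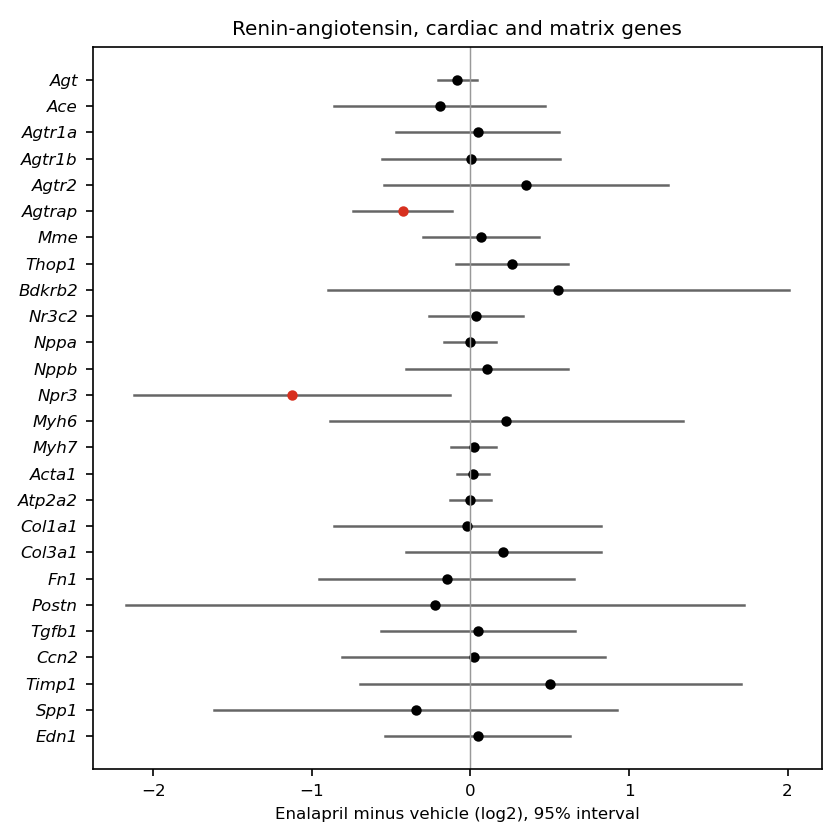
Enalapril minus vehicle on the log2 scale with limma's 95% interval for renin-angiotensin, natriuretic, contractile and matrix genes; red points have an unadjusted p under 0.05. Only Agtrap (-0.43) and Npr3 (-1.13) among the genes drawn have intervals that leave out 0, and neither passed adjustment.

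Outside the 28, several vasoactive and growth factor genes from the lists did not overlap. Adm encodes adrenomedullin, a vasodilator peptide induced by hypoxia and stretch. It read 9.12, 9.05, 9.44 and 9.21 in vehicle and 8.38, 8.30 and 8.47 with enalapril. The difference was -0.82 (SE 0.25, limma unadjusted p = 0.00531), a ratio of 0.567. All 4 vehicle arrays lay above all 15 other arrays, but by a slight gap: the lowest vehicle array read 9.049 and paricalcitol replicate 1 read 9.046. Bmp4, a bone morphogenetic protein, read 7.68, 7.93, 7.68 and 8.06 against 7.01, 6.92 and 7.26, a difference of -0.78 (SE 0.22, limma unadjusted p = 0.00336). Smad7, an inhibitor of TGF-beta signalling, also did not overlap, at -0.62 (SE 0.35). Nos3, endothelial nitric oxide synthase, read 8.07, 8.14, 8.15 and 8.14 against 7.93, 7.59 and 7.99, a difference of -0.29 (SE 0.13).
TGF-beta signalling had a median of -0.02 over 25 genes. Of these, 2 were lower without overlap (8%, against 4.2% of all genes) and 1 higher (4%, against 4.33%). Hypoxia-inducible genes had 13 of 20 lower and 3 of 20 lower without overlap (15%, against 4.2% of all genes). Their median of -0.06 turned to 0.10 in the deposited values without equalisation, below the 0.17 of all genes there. Endothelin and nitric oxide genes had 10 of 17 lower, 2 of them without overlap (11.8%). Their median of -0.08 was 0.10 in the deposited values, again below all genes, 0.02 with dimmer genes left out and -0.005 without vehicle replicate 4.

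T cell markers were higher on balance, with 11 of 12 measured genes above vehicle and a list median of 0.34, the largest of all 45 lists. For comparison, 48.4% of all genes were higher and their median was 0. Cd5 and Cd3g had an unadjusted p under 0.05 (2 of 12, against 2.71% of all genes in this direction), and Cd28 was the 1 of 12 without overlap (8.33%, against 4.33% of all genes). Cd3g read 5.11, 4.00, 4.00 and 4.00 in vehicle and 5.07, 5.04 and 4.97 with enalapril. Its arrays overlapped, and its difference came from the vehicle arrays at the floor. Cd3g, a chain of the T cell receptor complex, differed by 0.75 (SE 0.35), Cd2 by 0.64 (SE 0.33), Cd28, a co-stimulatory receptor, by 0.52 (SE 0.29) and Cd5 by 0.41 (SE 0.17). Cd8b was the exception at -0.57 (SE 0.45). The markers are faint: their summed intensity was 328 to 420 on the vehicle arrays and 472 to 526 on the enalapril arrays. In the other groups it was 329 to 385 at baseline, 353 to 471 with paricalcitol and 307 to 444 in the combination. The list median stayed above 0 under every scaling run and with each of the 7 arrays left out, between 0.29 and 0.41 in the latter. It was not seen again where enalapril was added to paricalcitol. For the combination minus paricalcitol, 6 of the 12 markers were higher and the list median was 0.004.
Macrophage markers had 13 of 16 higher and a median of 0.27, which was 0.09 without enalapril replicate 3. Csf1r, the receptor of the macrophage growth factor, differed by 0.35 (SE 0.19) and C1qa, a complement subunit made by macrophages, by 0.34 (SE 0.27). Both were without overlap (2 of 16, 12.5%, against 4.33% of all genes). Of the 16, 0 had a limma unadjusted p under 0.05, against 5.64% of all genes. The cytokine and adhesion list had 20 of 30 higher and a median of 0.15. Ccl2, the monocyte attractant, read 7.44, 6.90, 7.56 and 7.80 in vehicle and 7.96, 7.95 and 8.27 with enalapril, a difference of 0.64 with an SE of 0.71.

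Immediate early genes, which are induced rapidly by stress or stretch and include many transcription factors, were carried by 1 array. Of 24 genes 19 were higher, with a median of 0.24, yet without enalapril replicate 2 the median was -0.06. Of the 24 genes, 20 had their highest value of the 7 arrays there, Egr1 and Atf3 among them. The list score, the median over the genes of the level minus the mean of all 19 arrays, was -0.28, 0.82 and 0.06 on enalapril replicates 1 to 3 and -0.13 to 0.21 on the vehicle arrays. Red cell markers also differed between those arrays, with a score of -0.58 on enalapril replicate 1 and 0.64 on replicate 2. With the red cell score as a covariate the immediate early median was 0.23, and 954 of all genes had an unadjusted p under 0.05, with 0 passing adjustment. That covariate, a mean over 7 markers, was -0.62, 0.66 and 0.09 on the enalapril arrays and -0.31 to 0.56 on the vehicle arrays. It was alike on average in both groups, so it could move a group difference only a little. Whether red cell content bears on the immediate early genes was not tested. Myc, a growth regulator, was the 1 of 24 without overlap (4.17%, near the 4.33% of all genes), at 0.67 (SE 0.44).
Sgk1, a kinase induced by corticosteroids, read 8.56, 9.59, 8.82 and 9.01 in vehicle and 9.53, 10.55 and 9.78 with enalapril, with replicate 2 again the highest. Its difference was 0.96 (SE 0.36). Errfi1, an inhibitor of EGF receptor signalling, read 6.90 to 7.32 on the vehicle arrays against 7.92, 8.65 and 7.63, or 0.99 higher (SE 0.37). Over the glucocorticoid-induced list 9 of 17 genes were higher and 7 lower, with a median of 0.18. With single arrays left out that median lay between 0 and 0.23. Sgk1, Errfi1 and the transcription factor Cebpb (0.40, SE 0.18) had an unadjusted p under 0.05 (3 of 17, against 2.71% of all genes), and none of the lower ones did. Klf15 (-0.72, SE 0.44) and Fkbp5 (-0.29, SE 0.24) were among the lower genes.

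**Figure D3:**
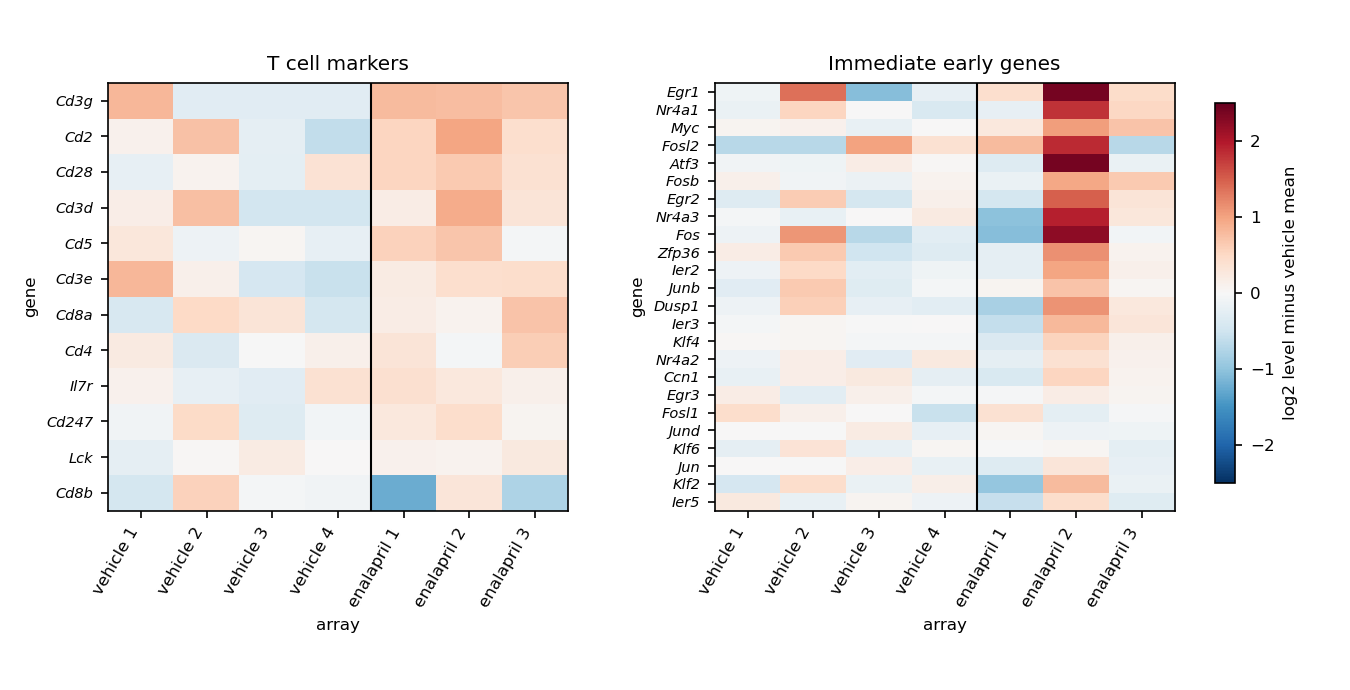
Log2 level minus the vehicle mean for each T cell marker and immediate early gene (rows) on the 4 vehicle and 3 enalapril arrays (columns). On the 3 enalapril arrays 11, 11 and 10 of the 12 T cell markers lie above the vehicle mean, against 7, 8, 3 and 4 on vehicle replicates 1 to 4. The immediate early genes are high on enalapril replicate 2, where the list score is 0.82.

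Muscle atrophy and autophagy genes were lower on balance. Of 24 measured genes 18 were lower, with a median of -0.12, which turned to 0.05 in the deposited values without equalisation, below the 0.17 of all genes there. Enalapril replicate 1 did not share it: 11 of the 24 genes lay above the vehicle mean on that array, against 4 and 7 on replicates 2 and 3, and its list score of 0.10 was within the vehicle range of 0.003 to 0.15. Without it the median was -0.19. In 6 of the 24 the enalapril arrays lay below all vehicle arrays (25%, against 4.2% of all genes). Several of these were parted by a slight gap between the highest enalapril and the lowest vehicle array. Those arrays read 10.610 and 10.612 for Lamp2, and 11.844 and 11.850 for Sqstm1. They read 12.499 and 12.518 for Bnip3, and 9.573 and 9.594 for Gabarapl1. Atg12, a ubiquitin-like protein of autophagosome formation, read 9.67, 9.72, 9.86 and 9.68 in vehicle and 9.58, 9.46 and 9.54 with enalapril, a difference of -0.21 (SE 0.07). Trim54, a sarcomeric RING-finger protein, read 11.68, 11.51, 11.69 and 11.59 against 11.36, 11.24 and 11.48, a difference of -0.25 (SE 0.10). Bnip3, a mitophagy receptor, differed by -0.26 (SE 0.11) and Lamp2, a lysosomal membrane protein, by -0.19 (SE 0.09). The best known atrophy ligases gave little: Trim63 differed by -0.01 (SE 0.29) and Fbxo32 by -0.30 (SE 0.27).

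Chaperones showed a mixed picture. Among 32 unfolded protein response and heat shock genes 22 were higher, 6 of them without overlap (18.8%, against 4.33% of all genes), while 2 were lower without overlap (6.25%, against 4.2%). Of the 32, 0 had a limma unadjusted p under 0.05, against 5.64% of all genes. The median was 0.05, and -0.05 after median scaling. Hspb1, a small heat shock protein, read 12.50, 12.43, 12.60 and 12.52 in vehicle and 12.76, 13.03 and 12.84 with enalapril, a difference of 0.37 (SE 0.17). Hspa5, the endoplasmic reticulum chaperone BiP, differed by 0.29 (SE 0.14). Cdkn1a, the p21 inhibitor of the cell cycle, read 10.11, 9.92, 9.94 and 10.17 against 10.35, 10.74 and 10.49, a difference of 0.49 (SE 0.17). Energy metabolism lists had medians of 0.01 for the respiratory chain (33 genes), 0.01 for the TCA cycle (20 genes) and -0.005 for fatty acid oxidation (35 genes). Their sign followed the scaling, with -0.15, -0.13 and -0.12 after median scaling and 0.11, 0.13 and 0.14 with the arrays left as deposited. In the deposited values the median of all genes was 0.17.

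**Figure D4:**
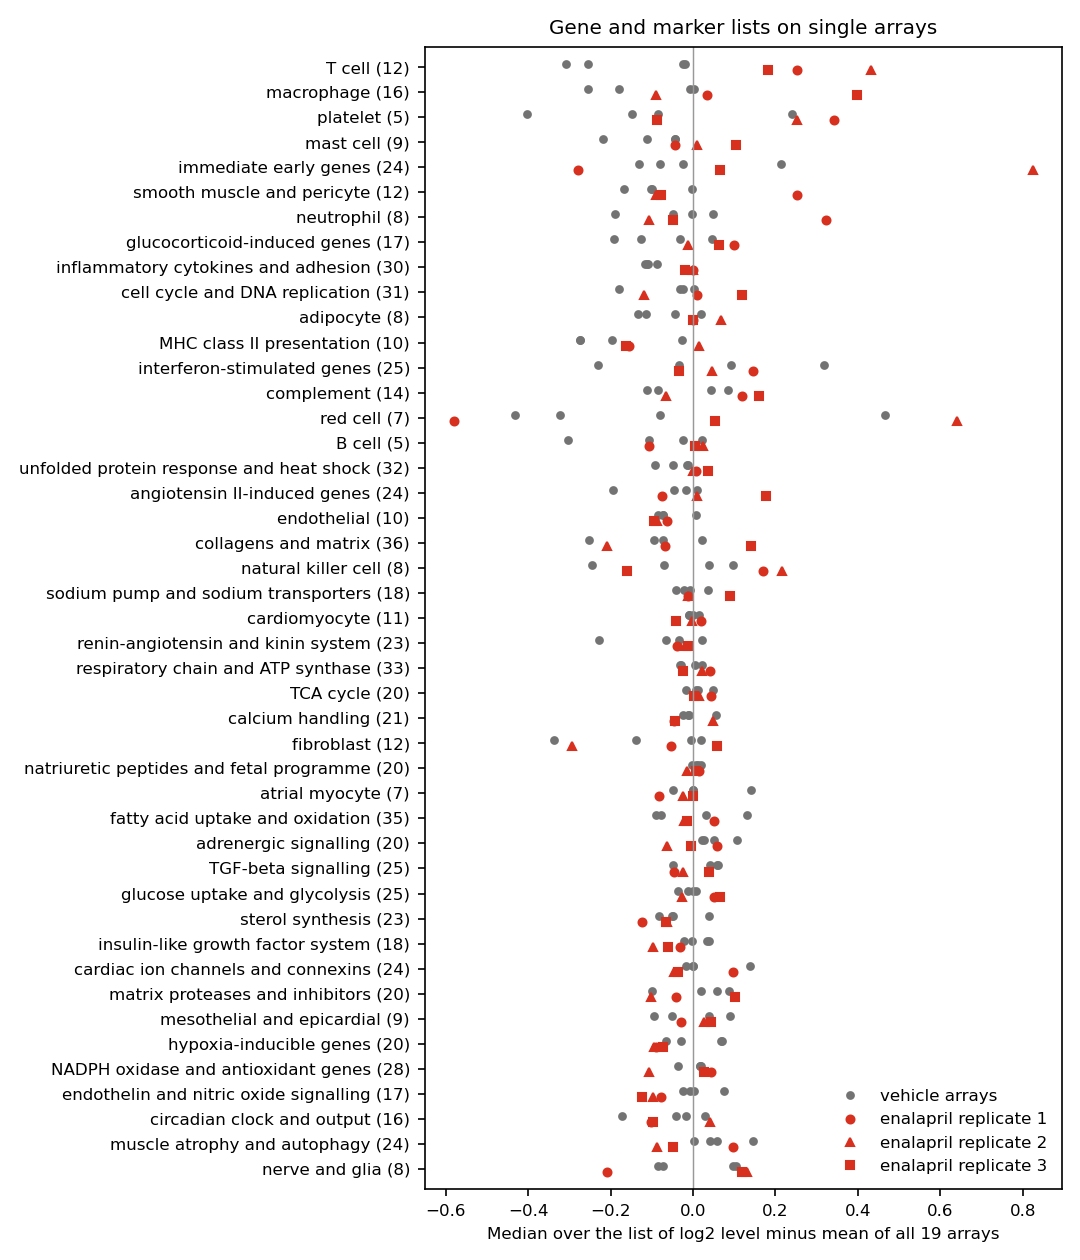
List scores on the single arrays for 45 gene and marker lists, with the number of measured genes in brackets; grey points are the 4 vehicle arrays and red symbols the 3 enalapril arrays. T cell markers are the list at the top, with 0.18 to 0.43 on the enalapril arrays against -0.31 to -0.02 in vehicle; the enalapril arrays spread most for red cell markers and immediate early genes.

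The study also gave enalapril on top of paricalcitol, and the combination minus paricalcitol uses 8 arrays that the main comparison does not. No gene passed there in limma (0 of 14217 genes, smallest adjusted p = 0.174, 1286 or 9.05% at an unadjusted p under 0.05), and none passed for the interaction of both drugs (smallest adjusted p = 0.113, 987 or 6.94% at an unadjusted p under 0.05). Of all genes, 48.2% were higher with the combination. Across the 14217 genes the 2 differences had r = 0.002 and rho = -0.003 (genes are not independent replicates). Of the 14 higher genes 7 had the same sign with paricalcitol, and of the 14 lower genes 7. Plpp6 (0.27, SE 0.11), Lsm5 (0.16, SE 0.07) and Nsd3 (-0.27, SE 0.10) were the ones that reached an unadjusted p under 0.05 in the same direction.
Lss went the other way. Its mean was 5.89 with paricalcitol and 6.53 in the combination, a difference of 0.64 (SE 0.14), against -0.67 without paricalcitol, and the interaction had an adjusted p of 0.113 in limma. Bmp4 was likewise -0.78 without and 0.51 (SE 0.21) with paricalcitol. Insig1 (-0.01, SE 0.08) and Fance (-0.03, SE 0.16) were near 0 there.
Of the 385 genes higher at an unadjusted p under 0.05, 192 had the same sign with paricalcitol, and of the 417 lower genes 215. Both comparisons use the same spread estimate for each gene, so their p-values are not independent. At an unadjusted p under 0.05 in the same direction were 28 of the 385 (7.27%, against 5.13% of all genes) and 31 of the 417 (7.43%, against 3.91%). Among these, chosen after their values were seen, Synj1, a phosphoinositide phosphatase, was lower by -0.23 (SE 0.06) and -0.30 (SE 0.06), and Kmt2a, a histone methyltransferase, by -0.25 and -0.23. Gpd2, the mitochondrial glycerol phosphate dehydrogenase, was higher by 0.46 and 0.39, and Uqcrh, a complex III subunit, by 0.15 and 0.22. From the atrophy and autophagy list Atg12 (-0.16), Trim54 (-0.22), Bnip3 (-0.35) and Lamp2 (-0.27) were lower with paricalcitol too, although that list's median was -0.02. Other lists went the other way with paricalcitol. There 4 of 30 cytokine and adhesion genes were higher (median -0.27), 3 of 16 macrophage markers (-0.09) and 6 of 24 immediate early genes (-0.19). Of 24 angiotensin II-induced genes, 14 were higher without paricalcitol (median 0.05) and 0 with it (-0.38). Interferon-stimulated genes were mostly higher in both, 17 and 21 of 25. No list was tested.

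**Figure D5:**
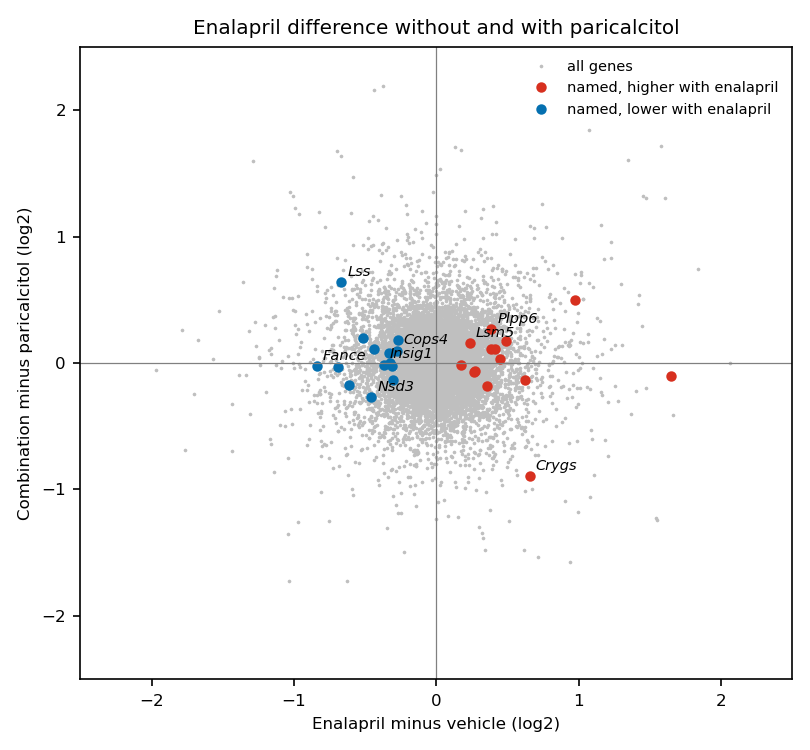
Enalapril minus vehicle against combination minus paricalcitol for 14217 genes (grey), with the 14 higher genes in red and the 14 lower genes in blue, both axes in log2 units. The cloud has no slope (r = 0.002), and Lss lies at -0.67 on one axis and 0.64 on the other.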

How the data were processed

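Deposited values were linear intensities, 1 per probe set and array. The authors had subtracted a background, since 16% to 18.2% of values on an array were below 0, with tools not given in the sources used. Per the labels' protocols, RNA had an integrity number above 9 and 5 ug went into biotin-labelled cRNA. All 19 arrays were quantile normalized, negative values were raised to 0, and 16 was added before log2. Each of 14217 genes was represented by its brightest probe set; probe sets naming several genes (436) or none (9780) were left out. Group means over 19 arrays were modelled in limma 3.58.1 (R 4.3.3; empirical Bayes with trend), a procedure tested on simulated data. With 3 against 4 arrays an exact two-sided permutation test cannot go below 0.0571. Members and lists were chosen with earlier results of these data known. Named genes were the 28 described, up to 4 members of each list with a mean of at least 5, and a panel of 23 cardiac genes; other list members were named after their values were seen. Alternatives were other scalings, pseudocounts, probe set rules, variance models, array weights, a replicate block, a red cell covariate, and each array left out.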

Additional observations from a re-analysis of the deposited data

Results flagged for a closer look

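In 73 groups of 4 vehicle arrays examined (28 genes and 45 lists), 5 held an array far from the other 3, and chance flags about 1 in 20 groups. The gap as a share of the range was 0.932 for Crygs, where vehicle replicate 4 read 5.09 and the others 5.76 to 5.81. For list scores it was 0.941 for NADPH oxidase and antioxidant genes, 0.893 for cardiac ion channels and connexins, 0.866 for endothelial markers and 0.837 for calcium handling.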

How the results depend on the processing

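The number of arrays limits precision, and levels near the floor are uncertain. In enalapril against vehicle, 1 gene passed after median scaling (Ttc3), 1 with pseudocount 4 (Tnfrsf11a), and 0 to 2 with single arrays left out (Tektl1 without enalapril replicate 1; Mov10l1 and Nell2 without enalapril replicate 2). Unadjusted calls numbered 390 with dim genes left out, 1246 with array weights and 1288 with only the compared arrays fitted or normalized, and 600 to 815 with single arrays left out. Genes without overlap numbered 766 with dim genes left out and 1642 to 2513 with single arrays left out, fewer arrays being easier to separate. For the combination against paricalcitol, 65 passed after median scaling and 1 with the mean of all probe sets. For the interaction, 1 passed in deposited values, 8 after median scaling and 0 to 2 with single arrays left out. Equal replicate numbers did not pair the arrays (r of -0.126, -0.093 and 0.0522), and with a replicate block 0 genes passed in enalapril against vehicle (934 unadjusted), 1 in the combination against paricalcitol and 1 in the interaction. Among named genes, those whose sign turned with both values above 1 SE were Atp5f1c (-0.121), Csrp3 (-0.126) and Idh2 (-0.152) after median scaling and Gnas (0.176) with the mean of all probe sets. Differences within 1 SE also turned after median scaling, among them Tnnt2 (-0.259), Myh7 (-0.239), Acta1 (-0.229), Nppb (-0.111) and Ryr2 (-0.0874). The cause was not tested.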
